A study of Mus musculus with 2 samples.

Results

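The genes described here encode the contractile machinery of smooth muscle and the markers of the mural cells, the smooth muscle cells and pericytes that wrap blood vessels. The 10 genes were chosen by name (Acta2, Actg2, Myh11, Tagln, Cnn1, Des, Rgs5, Notch3, Mylk and Lmod1). All 10 were matched by identifier among 43346 mouse genes, and 18 of 103639 mouse transcripts belonged to them. The RNA came from adipose tissue of a C57BL/6J male at 10 weeks of age and was polyadenylated. Its 1 biosample forms a single group, without treatment or genotype contrast, and was sequenced as 2 technical libraries. Library 2 dates from 2015 and is not part of the 2014 publication named in the labels, so library and date cannot be told apart. Values are given for library 1 and then library 2, a mean is followed by the SD (technical spread, n = 2 libraries), and no condition was compared with another.

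Smooth muscle contracts when myosin heads pull on actin filaments after calcium and calmodulin have switched on myosin light chain kinase, which phosphorylates the regulatory light chain. Contractile genes of this cell type are largely driven by serum response factor (Srf) and its partner myocardin (Myocd). In fat these cells lie in the walls of arterioles, venules and capillaries. The ducts of the male tract have a muscular coat of their own. In bulk tissue, fewer cells of a type and less RNA per cell cannot be told apart.

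The library 2 to library 1 ratio of a transcript was graded with its share of G and C bases, so the base composition of the genes is shown first. The 90-base stretches below come from the coding part of 4 GENCODE M21 transcripts (mm10). They were picked for a GC content nearest that of the whole transcript and run from Rgs5, the GC-poorest member, to Notch3, the GC-richest. Capitals mark G and C.
Rgs5-201: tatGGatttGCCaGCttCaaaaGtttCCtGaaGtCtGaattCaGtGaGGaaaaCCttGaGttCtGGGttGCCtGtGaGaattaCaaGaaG
Acta2-201: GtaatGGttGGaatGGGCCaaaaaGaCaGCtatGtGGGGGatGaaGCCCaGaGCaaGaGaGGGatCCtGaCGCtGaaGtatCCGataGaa
Des-201: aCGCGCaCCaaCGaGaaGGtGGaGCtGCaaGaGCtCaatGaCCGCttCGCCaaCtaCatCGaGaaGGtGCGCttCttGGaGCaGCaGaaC
Notch3-201: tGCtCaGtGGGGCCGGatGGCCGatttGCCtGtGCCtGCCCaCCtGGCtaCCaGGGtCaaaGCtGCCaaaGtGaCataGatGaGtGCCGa
G and C made up 41.1% of the Rgs5-201 transcript, 49.6% of Acta2-201, 56.5% of Des-201 and 59.6% of Notch3-201. Their 90-base stretches hold 37, 45, 51 and 54 G or C.

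The libraries held 19954869 and 19256807 expected counts, the estimated reads per gene. Mitochondrial genes took 33.6% of TPM (a length-corrected share of transcripts, scaled to one sum in every library) in library 1 and 8.66% in library 2, so that nuclear genes shared less of the total in library 1. Ratios between the libraries were therefore taken on counts scaled by TMM, a trimmed mean over all genes. Over tested genes the median log2 ratio was -1.16 under 45% GC, -0.43 from 45% to 50%, 0.76 from 50% to 55%, and 2.65 above that. Of the members, 1 lay in the first of these ranges (Rgs5), 1 in the second (Acta2), 7 in the third and 1 in the last (Notch3). Here and in the GC trend, the GC content of a gene pools all its M21 transcripts. Des is thus in the third range at 54.98%, though Des-201 alone is at 56.5%. Markers of the epididymis, the sperm-storing duct, were abundant, with 5 genes summing to 28792 and 34904 TPM. The part of these cells in the results below was not tested.

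All 10 genes were detected at 1 TPM or more in both libraries. Their median level was 26.3 TPM in library 1 against 64.1 in library 2, and 9 of the 10 had the higher TPM in library 2. On this scale nuclear genes share less of library 1, and the same share over all genes was not taken. The 9 include Mylk, whose log2 ratio on scaled counts was -0.37. Together they summed to 474 and 1495 TPM, or 23307 and 41821 counts. The levels spanned 92.3-fold between the highest and lowest member in library 1 and 80.8-fold in library 2. Calls came from exact binomial tests, adjusted over 18275 genes by the Benjamini-Hochberg method. As scaled, 5 members were called at least 2-fold higher in library 2, where 30.1% of all tested genes were, and 1 was called lower, where 18.4% of all genes were. The test covers counting error between these 2 libraries only. The other 4 members stayed under the 2-fold limit. The median log2 ratio of the members was 1.24, beside 0.02 over all tested genes. After removal of the GC trend it was -0.20, with 3 members called higher (9.52% of all genes) and 2 called lower (8.19% of all genes).

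**Figure D1:**
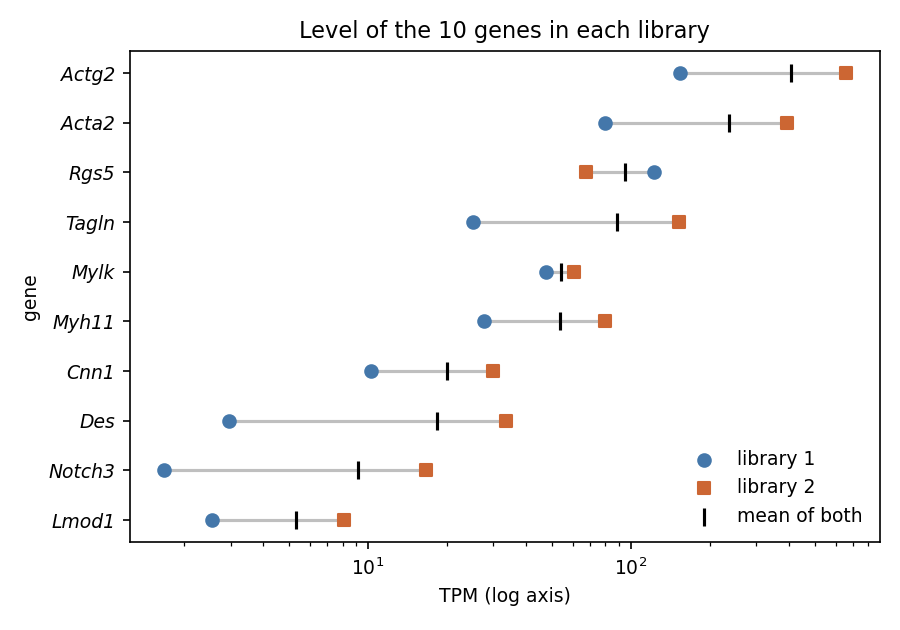
TPM of each member on a log axis, with library 1 as circles, library 2 as squares and the mean of both as a bar. Actg2 is highest in both libraries, and Rgs5 is the member with less TPM in library 2 (67.3) than in library 1 (123).

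The actins lead the members by mean TPM. Actg2, the smooth muscle gamma actin that is typical of visceral muscle (ENSMUSG00000059430, chromosome 6, 83512905 to 83536265, minus strand, mm10), stood at 154 and 656 TPM in libraries 1 and 2 (mean 405 ± 355), with 2529 and 9958 counts. Acta2, the smooth muscle alpha actin that is typical of vessel walls (chromosome 19, 34241090 to 34255590, minus strand), stood at 79.6 and 391 TPM (mean 235 ± 220), with 2171 and 8356 counts. Both stood higher in library 2, and Actg2 was the highest member in both libraries. It held 32.5% and 43.9% of the members' summed TPM, while Acta2 was the third in library 1 and the second in library 2. The Actg2 to Acta2 ratio in TPM was 1.94 in library 1 and 1.68 in library 2. Both genes were called higher in library 2. The log2 ratio was 1.56 for Acta2, with an exact 95% interval of 1.49 to 1.63, and 1.59 for Actg2 (1.53 to 1.65). Once the GC trend was removed, Acta2 kept 1.49 and Actg2 had 0.56, under the 2-fold limit.

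Both actin genes had whole gene counts (within 0.005) in both libraries, with a deposited posterior standard deviation of 0, so no read was divided between them and another gene. Over 1128 aligned coding bases, without gaps and lined up at the last codon, Acta2 and Actg2 were 83.8% identical, with 183 differing bases and no identical run longer than 29. Of the 24 listed paralogs of the members 20 were tested, and 11 were called higher in library 2, where 30.1% of all tested genes were. With the GC trend removed 3 were called higher and 2 lower, where 9.52% and 8.19% of all genes were. The median GC content of the tested paralogs was 54.4%. The skeletal muscle actin Acta1 shares 85.4% of its coding bases with Acta2 and the cardiac actin Actc1 82.6%. Acta1 had 2 and 237 counts, or 0.09 and 14.2 TPM, with a log2 ratio of 6.18 and a counting interval of 4.63 to 9.56. The same gene had 3.50 once the GC trend was removed. Actc1 had 2 and 7 counts, or 0.09 and 0.41 TPM. The cytoplasmic actins were higher than either smooth muscle actin, Actg1 at 477 and 1007 TPM and Actb at 183 and 834 TPM. Counts of both include fractions, so their reads were partly shared with other genes and their levels are uncertain.

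Motor and kinase are described next, and both lay below Rgs5 and Tagln in mean TPM. Myh11, the smooth muscle myosin heavy chain (chromosome 16, 14194535 to 14291372, minus strand), was at 27.5 and 79.8 TPM (mean 53.7 ± 37.0), with 3037 and 6889 counts. Mylk, the myosin light chain kinase (chromosome 16, 34745210 to 35002420, plus strand), was at 47.5 and 60.9 TPM (mean 54.2 ± 9.43), with 5922 and 6003 counts. Mylk thus stood above Myh11 in library 1 and below it in library 2, with a Mylk to Myh11 ratio in TPM of 1.73 and then 0.763. Its scaled log2 ratio was -0.37 (-0.42 to -0.32) and that of Myh11 0.79 (0.73 to 0.86), so neither reached 2-fold. Their GC contents were 53.8% for Mylk and 53.2% for Myh11. With the GC trend removed the ratios were -1.46 for Mylk, a call, and -0.23 for Myh11. Mylk thus stood below Myh11 in scaled ratio with and without the trend. With total counts in place of TMM, every log2 ratio is 0.44 higher, and that of Mylk turned to 0.07. Of the non-muscle myosins, Myh9 was at 12.8 and 83.3 TPM, Myh10 at 16.9 and 33.8 TPM, and Myh14 at 0.12 and 7.64 TPM. Myh9 and Myh10 had fractional counts in library 2 and are uncertain.

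The actin-binding members differed widely in level. Tagln, which encodes transgelin (SM22), an early smooth muscle marker (chromosome 9, 45929619 to 45936058, minus strand), was at 25.03 and 152 TPM (mean 88.5 ± 89.7), with 599 and 2851 counts. Cnn1, which encodes calponin, an inhibitor of the myosin ATPase (chromosome 9, 22099216 to 22109630, plus strand), was at 10.3 and 29.8 TPM (mean 20.025 ± 13.8), with 384 and 870 counts. Lmod1, a leiomodin that nucleates actin filaments (chromosome 1, 135324807 to 135368065, plus strand), was at 2.55 and 8.12 TPM (mean 5.34 ± 3.94), with 164 and 409 counts. Tagln was called higher in library 2 by 1.86 (1.74 to 1.99), and by 1.40 with the GC trend removed. Cnn1 had 0.79 (0.62 to 0.97) and Lmod1 0.93 (0.67 to 1.202), and with the trend removed they had -0.30 and -0.16. The counting interval of Lmod1 then ran from -0.42 to 0.11, so its direction is open. The Myh11 to Cnn1 ratio in TPM was 2.68 in both libraries. Tagln shares 108 exonic bases with Pcsk7 on the opposite strand, a gene at 2.02 and 17.7 TPM, and 1241 with the later annotated Gm48529. Mylk (548 and 224 bases, both with later annotated genes), Notch3 (488) and Des (220) also share exonic bases with opposite-strand genes. The partners of Notch3 and Des were at 0.17 TPM or less. Whether the counts used strand is not given in the sources used here, so reads of such partners cannot be told apart.

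Des, the gene of desmin, the intermediate filament of muscle (chromosome 1, 75360329 to 75368579, plus strand), had the widest gap. It stood at 2.97 and 33.5 TPM (mean 18.3 ± 21.6), with 77 and 1214 counts. Its log2 ratio was 3.58 (3.26 to 3.94) by the exact interval, the highest of the 10, and 1.93 (1.61 to 2.29) with the GC trend removed, also the highest. The latter value used the pooled GC content of the gene. With GC content weighted by transcript share it was 1.85. Vim, the intermediate filament gene of mesenchymal cells, was at 170 and 426 TPM, with a log2 ratio of 0.21, or -0.54 with the GC trend removed.

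The mural signalling members differed in opposite directions as scaled, and both were lower in library 2 with the GC trend removed. Rgs5, a regulator of G protein signalling and a pericyte marker (chromosome 1, 169655501 to 169695813, plus strand), was at 123 and 67.3 TPM (mean 95.015 ± 39.2), with 8200 and 3517 counts. It was the second highest member in library 1 and the fifth in library 2, and the only member called lower in library 2. Notch3, the Notch receptor of mural cells (chromosome 17, 32120820 to 32166852, minus strand), was at 1.67 and 16.7 TPM (mean 9.17 ± 10.6), with 224 and 1754 counts. The Rgs5 to Notch3 ratio in TPM was 73.5 in library 1 and 4.04 in library 2. The log2 ratio of Rgs5 was -1.61 (-1.67 to -1.55), and that of Notch3 was 2.58 (2.38 to 2.79). With the GC trend removed Rgs5 stood at -0.39, under the 2-fold limit. Notch3 then stood at -1.04 (-1.23 to -0.83), a call in the opposite direction. The median ratio subtracted was -1.21 at the GC content of Rgs5 (41.8%) and 3.61 at that of Notch3 (59.7%). The direction of Notch3 thus changed with the treatment of GC content.

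**Figure D2:**
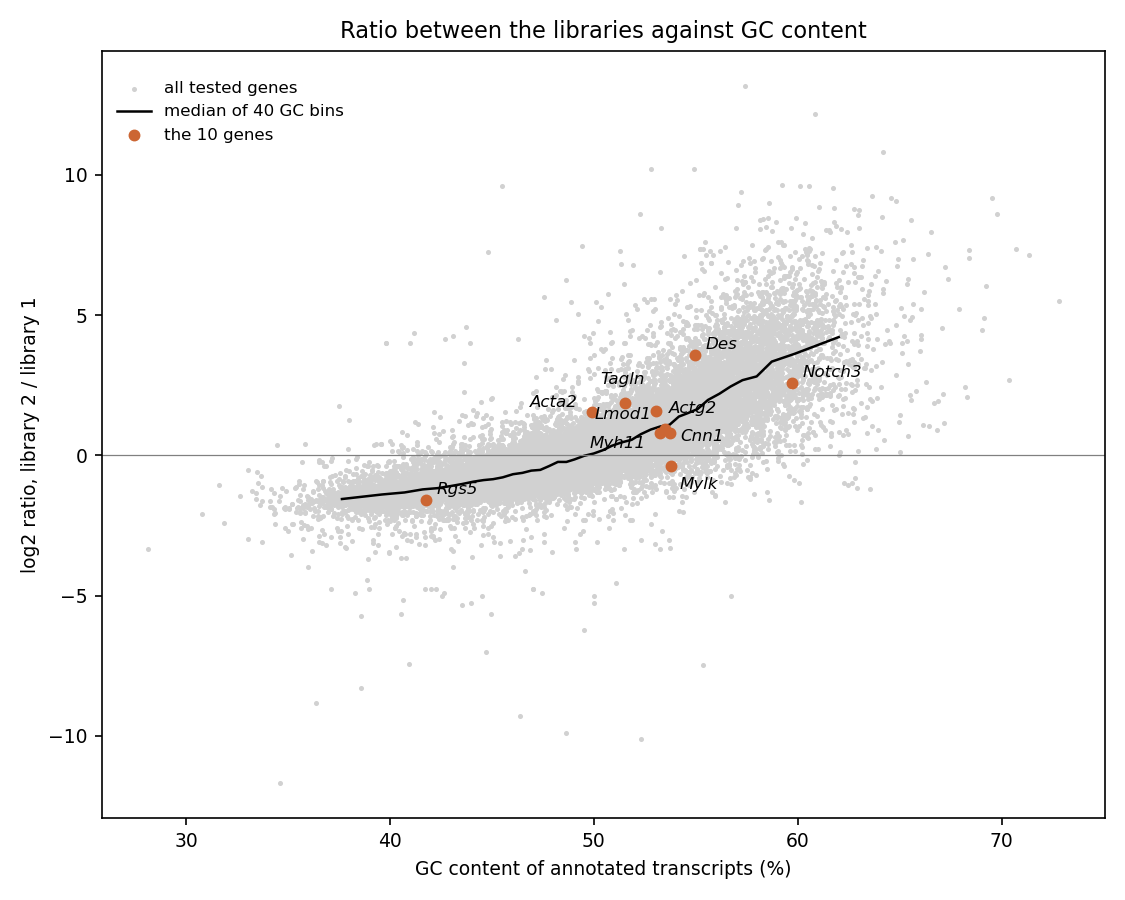
Log2 ratio of library 2 to library 1 (y axis) against the GC content of the annotated transcripts in percent (x axis) for all tested genes in grey, the median of 40 GC bins as a line, and the members as labelled points. Rgs5 lies near the line at the low end, Notch3 below it at the high end, and the 7 members between 50% and 55% GC spread from -0.37 (Mylk) to 3.58 (Des).

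Members of like GC content differed in ratio. Cnn1, Mylk and Lmod1 have GC contents of 53.7%, 53.8% and 53.5% and ratios of 0.79, -0.37 and 0.93. These GC contents pool all M21 transcripts of a gene. The only deposited transcript of Cnn1 is at 51.4%, while Mylk and Lmod1 are at 53.4% and 53.5% by transcript share. Cnn1 is thus of like GC content by the pooled value only. Acta2, the second lowest in GC content at 49.9%, had a ratio above those of Myh11, Lmod1, Cnn1 and Mylk. After removal of the trend, Acta2, Tagln and Des were called higher, Mylk and Notch3 lower, and the other 5 were under 2-fold. When GC content was weighted by the share of each transcript, a choice made after the data were seen, Tagln had 0.999, just under the 2-fold limit, and was no longer called. Under that weighting 2 members were called higher and 2 lower, where 8.65% and 7.71% of all tested genes were.

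**Figure D3:**
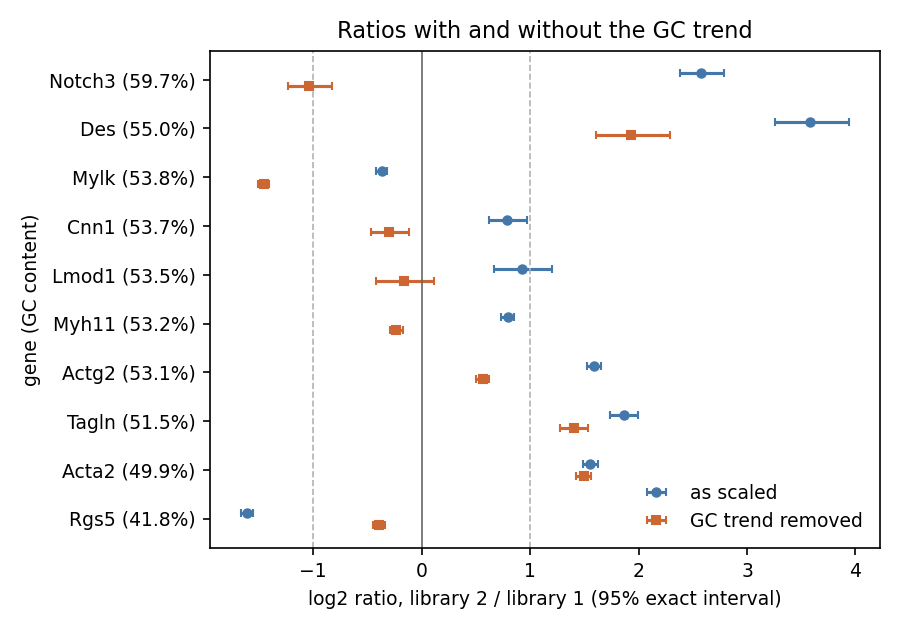
Log2 ratio of library 2 to library 1 for each member with its 95% exact interval, as scaled (circles) and with the GC trend removed (squares), in order of GC content; dashed lines mark 2-fold. The intervals cover counting error only. Notch3, Myh11, Cnn1 and Lmod1 move from above 0 to below it, though the interval of Lmod1 still crosses 0, and Acta2 moves least.

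Transcript shares were stable for some members and not for others. Of the 10 members, 6 had a single transcript in the deposited annotation. Of the 4 with more, 3 had the same leading transcript in both libraries (75%), beside 68.7% of 8542 genes with several transcripts and at least 50 counts in each library. Rgs5-201 held 99.9% and 99.8% of Rgs5, and Mylk-201 held 92.5% and 94.3% of Mylk.

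The leading transcript of Actg2 differed between the libraries. In library 1, Actg2-202 held 45.2% of the gene's TPM, Actg2-204 33.0% and Actg2-201 21.2%. In library 2, Actg2-201 held 97.1%, Actg2-204 1.51% and Actg2-202 0.17%. In estimated counts, Actg2-201 had 642 and 9793 and Actg2-202 had 1293 and 15.9. The deposited posterior standard deviations were 111 and 37.3 counts for Actg2-201, and 118 and 17.9 for Actg2-202. Actg2-201 and Actg2-202 differ in their first exon, which lies on chromosome 6 at 83536180 to 83536265 (86 bases, 52.3% GC) in the former and at 83527958 to 83527990 (33 bases, 24.2% GC) in the latter. A share shift as large as the 75.9 points of Actg2-201 was found in 4.004% of the 8542 genes. Shares are model estimates, so no count test was made, and the part of base composition in this shift was not tested.

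Des kept its leading transcript, but the share of that transcript differed. The full-length Des-201 held 40.2% of the gene's TPM in library 1 and 93.7% in library 2, with 58.1 and 1196 estimated counts. The retained-intron transcripts Des-202 and Des-203 held 29% and 30.8% in library 1 and 4.30% and 1.99% in library 2. The library 1 shares rest on 9.56 and 9.35 estimated counts. Their own levels were 0.86 and 1.44 TPM for Des-202 and 0.92 and 0.67 TPM for Des-203. Des-201 itself was at 1.2 and 31.4 TPM. A shift as large as its 53.5 points was found in 13.8% of the 8542 genes.

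**Figure D4:**
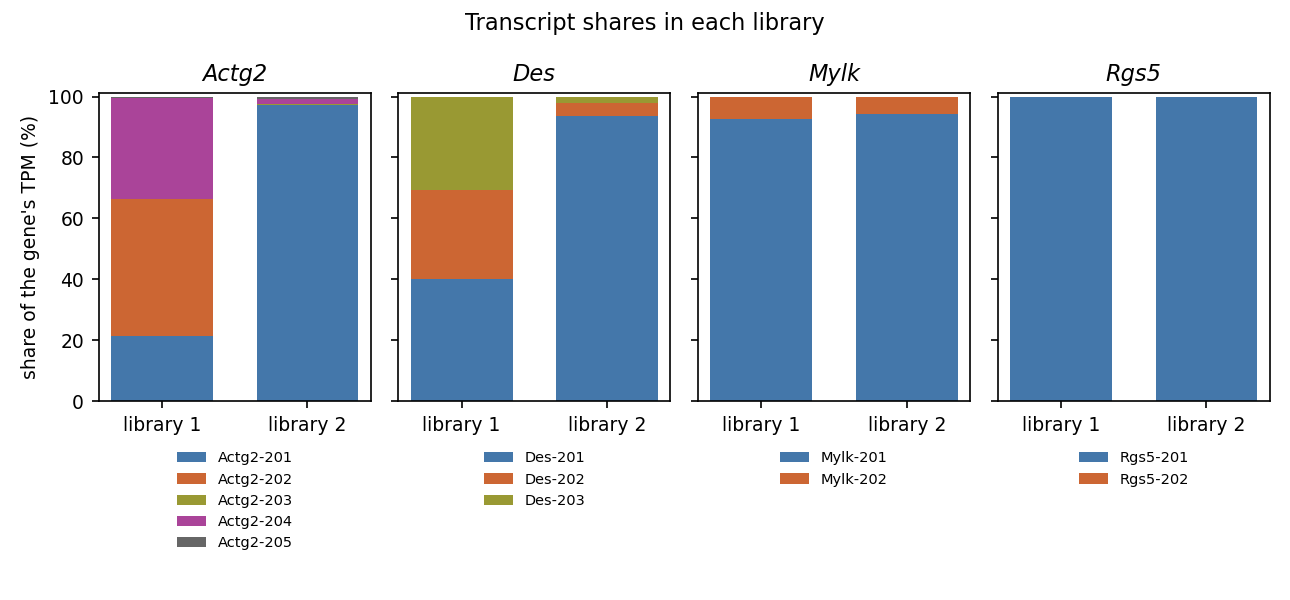
Share of each gene's TPM taken by its transcripts, in percent, for the 4 members with more than 1 transcript, with a bar for each library. Actg2-201 goes from 21.2% to 97.1% and Des-201 from 40.2% to 93.7%, while Mylk-201 (92.5% and 94.3%) and Rgs5-201 (99.9% and 99.8%) hold most in both.

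Promoters were searched for the CArG box, the site that serum response factor binds, written as CC, then 6 letters of A or T, then GG, a form that reads the same on both strands. RefSeq promoters of 300 bases (250 before the start site and 50 after, GRCm38.p6) were matched for 7 members: Acta2, Cnn1, Des, Rgs5, Notch3, Mylk and Lmod1. Actg2, Myh11 and Tagln had no matched promoter and were not searched. None of the 7 held the exact box, beside 1.63% of 32851 promoters. With a share this low, so few promoters cannot tell the members from other genes. With up to 1 other letter among the middle 6, a choice made after the data were seen, Acta2 held 2 boxes and the other 6 members none, beside 9.98% of all promoters. They are shown in capitals within 30 bases, on the minus strand of chromosome 19. The RefSeq start site used here (34255373) lies 217 bases downstream of the GENCODE M21 start (34255590). Both boxes therefore lie within the first exon of Acta2-201 in that annotation. The deposited Acta2-201 was 1781 bases long, against 2035 in M21, so whether it holds the boxes cannot be told here.
Acta2 box 84 to 75 bases before the RefSeq start, chr19:34255438-34255467: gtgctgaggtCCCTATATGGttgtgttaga
Acta2 box 34 to 25 bases before the RefSeq start, chr19:34255388-34255417: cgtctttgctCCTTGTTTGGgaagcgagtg
A match of letters is a description of the window and shows no binding.

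The other genes of the contractile pathway were taken from 7 lists. Of 106 genes that are not members, 102 were tested. In the same exact binomial test, adjusted over all genes, 39 were called higher in library 2 and 14 lower, and 49 were not called. Over all tested genes, 30.1% were called higher and 18.4% lower, which is also the background of the list counts that follow. Their median log2 ratio was 0.35 and stayed at that value with the 2 genes at 0 counts in library 1 set to the floor of 3 counts. With total counts in place of TMM, 47 were called higher and 5 lower, where 37.1% and 6.44% of all tested genes were. With the GC trend removed, 10 were called higher and 8 lower, where 9.52% and 8.19% of all genes were.

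The filament list had 6 of 15 genes called higher and 2 lower. Myl6, the essential light chain of smooth and non-muscle myosin, was at 116 and 1250 TPM, with fractional counts that make it uncertain. Tpm1, a tropomyosin that lies along the actin filament, was at 219 and 295 TPM and was not called. Flna, the crosslinker filamin A, was at 71.7 and 321 TPM, with a log2 ratio of 1.96, or 0.87 and no call without the GC trend. After removal of the GC trend, 3 of the 15 were called, all higher.

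The light chain control list showed the reverse balance, with 2 of 20 genes called higher and 8 lower. The calmodulin gene Calm2 was at 437 and 324 TPM. Rhoa, the small GTPase that holds myosin phosphatase in check through its kinases, was at 262 and 240 TPM. Calm2 and Rhoa had fractional counts and are uncertain. The median GC content of this list was 45.4%, against 53.3% for the filament list. With total counts in place of TMM, 3 of the 20 were called higher and 4 lower. Once GC content was accounted for, 1 of the 20 was called, and it was lower.

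Regulators of transcription had median levels of 2.715 and 7.18 TPM over 10 genes. Srf was at 1.09 and 17.4 TPM, Myocd at 1.83 and 2.33 TPM, and the myocardin-related factors Mkl1 and Mkl2 at 1.19 and 10.9 TPM and at 6.51 and 9.39 TPM. Klf4, a repressor of contractile genes, was at 18.7 and 24.6 TPM, Tead1 at 14.8 and 14.7 TPM, and Gata6 at 3.60 and 4.77 TPM. Mef2c was at 6.92 and 4.64 TPM, Foxs1 at 0.10 and 4.97 TPM (2 and 75 counts), and Tbx18, a mural cell factor, at 0.96 and 1.16 TPM. Srf, Mkl1 and Foxs1 were called higher in library 2 and Mef2c lower. Foxs1 rests on 2 counts in library 1, with a log2 ratio of 4.53 (2.94 to 7.91). Without the GC trend these 4 were not called, while Klf4 and Gata6 were called lower.

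The pericyte list had 8 of 10 genes called higher, with a median log2 ratio of 2.10. The 2 genes not called were Anpep at 0.52 and Abcc9 at -0.78, both under 2-fold. Mcam, an adhesion molecule of mural and endothelial cells, led at 42.6 and 137 TPM, with Anpep at 6.36 and 14.4 TPM and the growth factor receptor Pdgfrb at 2.24 and 18.1 TPM. Rgs5, at 123 TPM in library 1, was above every gene of this list there, and below Mcam in library 2. The median GC content of the list was 54.9%, and with the GC trend removed 1 of the 10 was called, Vtn at 1.37.

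The Notch list had 4 of 14 genes called higher and 2 lower. Ncstn, a part of the gamma-secretase that releases the receptor's inner domain, was at 33.6 and 112 TPM. Adam10, the protease that cuts the receptor first, was at 80.4 and 59.3 TPM. The 4 Notch receptors are not counted in this list. Among them, Notch1 was at 2.77 and 29.9 TPM, Notch2 at 6.62 and 17.1 TPM and Notch4 at 1.00 and 8.26 TPM. Notch3 was the third of the 4 in both libraries by TPM, and Notch1, Notch3 and Notch4 were called higher in library 2. After removal of the GC trend, Notch1 had 0.47 and was not called, while Notch4 had -1.82 and, like Notch3, was called lower. The list, which leaves out the receptors, then had 1 gene called higher and 3 lower.

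Receptors that act on smooth muscle had 5 of 13 genes called higher and 1 lower. Oxtr, the oxytocin receptor, was at 19.1 and 22.2 TPM, and the endothelin receptors Ednrb and Ednra at 18.4 and 14.1 TPM and at 9.49 and 10.95 TPM. Of these, Ednrb was called lower, with a log2 ratio of -1.10. Its ratio was -0.16, with no call, after removal of the GC trend, when 2 of the 13 were called, both higher. Using total counts, 6 of the 13 were called, all higher.

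**Figure D5:**
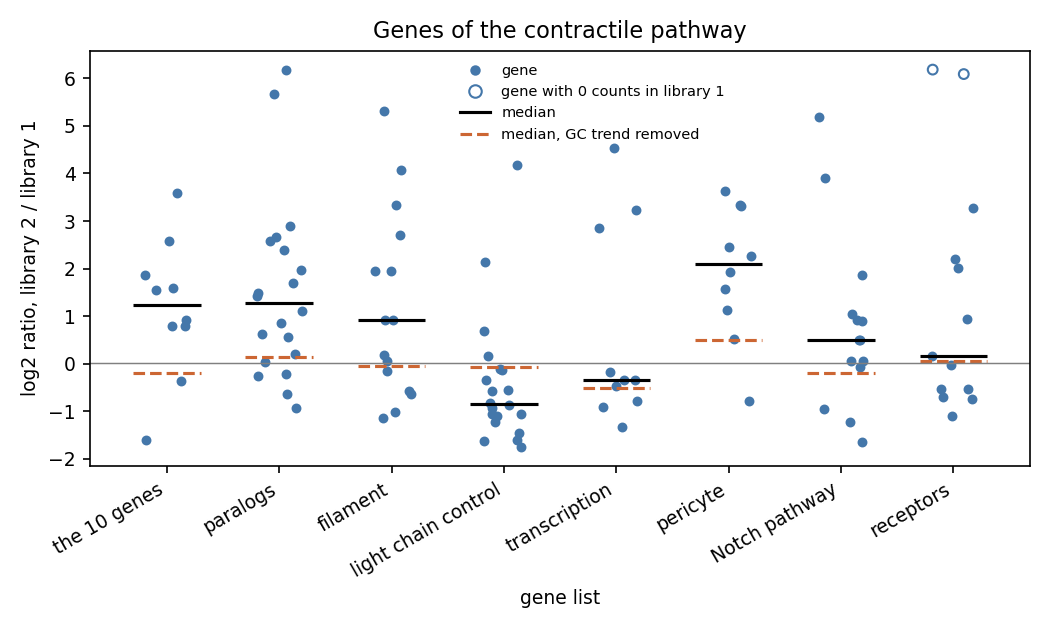
Log2 ratio of library 2 to library 1 for each tested gene of the members and the 7 pathway lists (points; open for 0 counts in library 1), with the median of each list (black) and the median with the GC trend removed (dashed). The grey line is the median of all tested genes, 0.02. The pericyte median is 2.10 and the light chain control median -0.84 before removal of the trend, and 0.50 and -0.06 after it.

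Other muscle types had lower summed levels. Skeletal muscle markers summed to 25.8 and 52.0 TPM over 11 genes, against 474 and 1495 TPM for the members. Myl1 made up 23.4 and 26.0 TPM of this, while the fast myosin gene Myh4 had 0 counts in both libraries. Cardiac markers summed to 5.51 and 30.9 TPM over 8 genes, led by Tnnt2 at 5.02 and 24.9 TPM, with Nppa at 0 counts in both. Lmod2, a paralog of Lmod1, also had 0 counts in both. A count of 0 allows up to 0.150 CPM (counts scaled to a common library total) in library 1 and 0.156 in library 2. Acta1 and Actc1 are shared between these lists and the actin paralogs. Markers of basal and myoepithelial cells, which can also express contractile genes, summed to 19.9 and 83.8 TPM over 5 genes, with Krt5 at 3.01 and 32.4 TPM. Their part in the results was not tested.

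Further cell types were present. Egfl7 led the endothelial markers (124 and 336 TPM over 8 genes) at 13.4 and 95.7 TPM, and Dcn the fibroblast markers (1426 and 1403 TPM over 7 genes) at 982 and 852 TPM. Fabp4 led the adipocyte markers (4808 and 8106 TPM over 4 genes) at 4072 and 6105 TPM, and Gpx5 the epididymal markers at 14177 and 15610 TPM.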

How the data were processed

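Gene and transcript tables of 2 technical libraries of 1 adipose biosample were used. The authors deposited expected counts, TPM and FPKM per gene and transcript, and each transcript's share of its gene's TPM in percent, per the file headers. The deposited bounds of a TPM interval were not used. The text beside the files names the mm10 assembly and the M4 annotation. The aligner is not given in the sources used here, nor is the quantifier. Symbols, coordinates and GC content came from GENCODE M21, a later release on the same assembly, which matched 42462 of 43346 mouse identifiers.

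Expected counts were rounded. Genes with at least 10 counts in sum (18275) entered an exact binomial test (two-sided) that took TMM library sizes, and p-values were adjusted by Benjamini-Hochberg. A call needed an adjusted p below 0.05 and 2-fold. Log2 ratios had 0.5 added to each count. With 1 library a side there is no replicate check; reads are not independent molecules, so intervals (95% Clopper-Pearson) and floors cover counting error only. The GC trend was the median ratio of 40 GC bins; 99.3% of tested genes had a GC value. On simulated counts of library 2 against library 1 with no GC trend, 100% of 200 genes changed 4-fold and 0.006% of the others were called over 18025 genes. With a simulated linear GC trend left in, 72% and 42.5% were called over 18048 genes. With that trend removed, 100% and 0.096% were called over 17928 genes. The simulated counts held counting error only, as the test assumes, and the changed genes were drawn from those with at least 100 counts in sum. The simulated trend was a straight line in the same GC value that the correction used, so its removal was bound to work. These rates therefore do not cover genes with fewer counts, variation between real libraries or a trend of another form.

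Named genes were the members, transcripts of at least 10% share, the 3 genes of each pathway list with the highest mean TPM, all actin, myosin and Notch paralogs, all listed transcription factors, and the leading and absent genes of each cell type list. Abcc9, Vtn and Pcsk7 lie outside that rule and were added after their values were seen. A few genes meeting this rule are left out and not reported here. The members and lists were chosen with earlier results of these data known. Listed symbols Mkl1 and Mkl2 are now Mrtfa and Mrtfb. Tests used scipy 1.17.1, pandas 2.3.3 and numpy 2.4.6 under Python 3.11.15. Scaling used edgeR 4.0.16, with DESeq2 1.42.0 as an alternative, under R 4.3.3. Figures used matplotlib 3.10.9.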

Additional observations from a re-analysis of the deposited data

How the results depend on the processing

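The counts of members called, 5 higher and 1 lower, were the same with DESeq2 size factors, other count minimums (a sum of 1 or 100), posterior mean counts, 1 added to each count, and edgeR's exact test with an assumed dispersion of 0.01. With total counts in place of TMM, 8 members were called higher (37.1% of all tested genes) and the members' median log2 ratio was 1.68, while 5 pathway genes were called lower. With the GC trend removed, 3 members were called higher and 2 lower, the median was -0.20, and 10 pathway genes were called higher and 8 lower. With GC content weighted by transcript share, an alternative added after the data were seen, 2 members were called higher and 2 lower, the median was 0.067, and 12 pathway genes were called higher and 7 lower. The direction was reversed with the GC trend removed for Myh11 (-0.23, weighted -0.24), Cnn1 (-0.30, but 0.34 and no reversal weighted), Notch3 (-1.04, weighted -1.003) and Lmod1 (-0.16, weighted -0.20), and for Mylk with total counts (0.071). For Lmod1 the counting interval with the trend removed ran from -0.42 to 0.11, so its direction is open. Actg2 and Rgs5 kept their direction but not their call with the trend removed, at 0.56 and -0.39. The median TPM of the members, 53.9 over both libraries, ranged from 26.3 to 64.1 with a library left out. It was 66.8 with TPM rescaled without mitochondrial genes, and the median FPKM was 40.5. With 4 copies on chromosome 1 also left out, a choice made after the data were seen, the median TPM was 76.0. With up to 1 other letter, the number of members with a CArG box went from 0 to 1. The GC trend is a bin median over all genes, so its removal also takes out any other difference that follows GC content. Depth gave narrow counting intervals except for Des and Lmod1, and 1 library a side leaves library-to-library variation unmeasured. No paired analysis was possible because the labels give a single group.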
